A study of Mus musculus with 6 samples.

Results

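The expression of 10 genes for heat shock proteins of the cytosol and the mitochondrion was measured in retinas of wild-type (WT) mice and of mice carrying Elovl2 C234W, a substitution in the fatty acid elongase Elovl2. The members were chosen by symbol: Hspa1a, Hspa1b, Hspa8, Hsph1, Hspa4l, Dnajb1, Hsp90aa1 and Hspb1 for the cytosol, and Hspd1 and Hspe1 for the mitochondrion. They are 10 of 25124 gene models in the count table, and all 10 passed the low-count filter that left 14685 genes for testing. Poly-adenylated RNA of whole retinas was sequenced in 3 WT libraries (WT1A, WT2A and WT2B) and 3 C234W libraries (FS3A, FS3B and FS5A). All mice were C57BL/6J and 4 months old, and no treatment is named. The labels do not say whether each library came from its own animal, so p-values measure the spread between libraries, which may be technical. The prefix FS was read as C234W by elimination, and the direction of every difference rests on that reading.

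Heat shock proteins are chaperones that hold unfolded proteins and help them fold. Hsp70 proteins bind and release stretches of unfolded protein, Hsp40 (DNAJ) proteins bring them their clients, and Hsp110 proteins exchange their nucleotide. Hsp90 acts later, on nearly folded clients such as kinases. Small heat shock proteins hold unfolded proteins without using ATP, and Hsp60 with its lid Hsp10 folds proteins in the mitochondrial matrix. Heat shock factors drive the stress-inducible members through heat shock elements, which are inverted repeats of GAA and TTC. In the retina, photoreceptors and neurons use the constitutive members at all times, while Hspb1 is known for its induction in stressed glia and neurons.

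Each library held 14184093 to 19298613 counts in genes, 65.8 to 74.4% of its tags. Levels are CPM, the counts of a gene relative to the library total, after TMM scaling, which equalises the bulk of genes between libraries. The 14 bipolar cell markers summed to 1177 to 1399 CPM in WT and 1552 to 1673 CPM in C234W with none at 0. Of the 14 lens markers, only Crygb and Crygc were at 0 in all libraries. The lens list summed to 4.34 to 4.95 CPM in WT and 2.35 to 3.66 CPM in C234W. The 8 muscle markers summed to 12.2 to 13.2 CPM in WT and 4.03 to 5.42 CPM in C234W. The 9 erythrocyte markers summed to 247 to 352 CPM in WT and 155 to 196 CPM in C234W. The part of these tissues in the values of the members was not tested. Library WT1A stood apart: its 12 pigment epithelium markers summed to 818 CPM against 86.0 to 197 in the other libraries. Of the rod markers, 11 of 12 summed to 74637, 47304 and 54766 CPM in WT and 36168, 33861 and 41503 CPM in C234W, with none at 0 and a median log2 fold change of -0.63. Each C234W library was thus below each WT library for rods and WT1A was highest, while WT2A, at 47304 CPM, was nearest to FS5A, at 41503 CPM. Of these 11 genes, 1 passed an edgeR adjusted p of 0.05 as lower, beside 1.53% of all genes. The part of the rod markers in the values of lower genes was not tested. Elovl2 itself was at 139 ± 3.01 CPM in WT and 96.1 ± 17.9 in C234W (SD, n = 3), which does not check a substitution.

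The start regions of 5 members carry exact heat shock element cores and are shown so that members known as targets of heat shock factors can be compared by their letters. RefSeq windows on GRCm38.p6, 250 bases before the start site and 50 from it on, were found for 8 of the 10 members. Both orientations of a pair of units, GAANNTTC and TTCNNGAA, were searched on both strands, and so was a run of 3 alternating units with the same spacing, which always contains both pairs. Of 32851 windows over all genes, 7.86% held GAANNTTC, 8.52% TTCNNGAA, 15.1% either of them and 0.603% the run of 3 units. Capitals mark matches, and each window reads 5′ to 3′ on the strand of its gene. Hspa1a is on the minus strand at chr17:34972107-34972406, Hspa1b on the minus strand at chr17:34959189-34959488, Hspb1 on the plus strand at chr5:135887669-135887968, Hsph1 on the minus strand at chr5:149636266-149636565 and Hspe1 on the plus strand at chr1:55087898-55088197.
Hspa1a: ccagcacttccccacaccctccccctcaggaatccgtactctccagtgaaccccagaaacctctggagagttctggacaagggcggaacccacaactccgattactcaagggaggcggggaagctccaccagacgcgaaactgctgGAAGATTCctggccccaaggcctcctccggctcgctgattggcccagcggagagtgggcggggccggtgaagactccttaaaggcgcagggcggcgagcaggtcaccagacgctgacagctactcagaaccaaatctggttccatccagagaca
Hspa1b: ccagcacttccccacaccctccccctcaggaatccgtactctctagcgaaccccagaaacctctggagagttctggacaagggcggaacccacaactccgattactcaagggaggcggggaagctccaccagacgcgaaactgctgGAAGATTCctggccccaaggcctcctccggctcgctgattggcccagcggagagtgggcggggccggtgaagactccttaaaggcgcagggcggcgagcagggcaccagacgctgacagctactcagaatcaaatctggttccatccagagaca
Hspb1: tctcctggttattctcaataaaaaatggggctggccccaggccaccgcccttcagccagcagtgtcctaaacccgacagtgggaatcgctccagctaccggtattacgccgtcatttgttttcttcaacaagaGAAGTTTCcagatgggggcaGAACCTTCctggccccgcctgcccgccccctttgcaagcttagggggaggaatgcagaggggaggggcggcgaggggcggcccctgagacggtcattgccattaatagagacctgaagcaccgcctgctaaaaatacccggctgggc
Hsph1: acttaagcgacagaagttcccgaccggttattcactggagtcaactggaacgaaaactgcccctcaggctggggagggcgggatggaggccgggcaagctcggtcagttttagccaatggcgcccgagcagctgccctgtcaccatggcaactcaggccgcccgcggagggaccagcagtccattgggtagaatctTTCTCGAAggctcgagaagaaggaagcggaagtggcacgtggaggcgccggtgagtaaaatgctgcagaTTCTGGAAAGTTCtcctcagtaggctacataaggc
Hspe1: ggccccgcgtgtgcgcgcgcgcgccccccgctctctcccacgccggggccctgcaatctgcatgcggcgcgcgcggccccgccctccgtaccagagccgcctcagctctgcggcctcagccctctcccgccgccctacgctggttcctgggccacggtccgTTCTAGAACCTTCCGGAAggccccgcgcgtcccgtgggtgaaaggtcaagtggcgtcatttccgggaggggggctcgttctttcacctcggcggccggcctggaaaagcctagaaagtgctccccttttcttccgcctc

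Hspa1a and Hspa1b hold the same GAAGATTC from base -104 to -97, with the start site as base 0. Their windows were 98.7% identical over 300 bases, with 4 differences, C44T, T47C, T249G and C276T, giving the base of Hspa1a first and counting from 1 at the 5′ end of the window. Hspb1 holds 2 pairs of units, GAAGTTTC from -117 and GAACCTTC from -97. Hsph1 has TTCTCGAA from -54 and the run TTCTGGAAAGTTC from 15, past its start site. In Hspe1, the runs TTCTAGAACCTTC from -89 and GAACCTTCCGGAA from -84 overlap. Hspd1 and Hspe1 lie head to head on chromosome 1, and their transcript models overlap by 96 bases on opposite strands. The window nearest to the counted Hspd1 model has no match, whereas the window of its other start site shares 285 bases with that of Hspe1 and holds the same run from -144 to -127. The windows of Hspa4l and Dnajb1 hold no exact match. These letters are descriptions of the windows, and binding was not measured.

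None of the 10 members passed an adjusted p of 0.05 in edgeR's quasi-likelihood test, where 1.82% of all genes tested did. At an unadjusted p of 0.05, 2 of 10 members were called (Hspa1b and Hspe1), and 25.9% of all genes. DESeq2 called 1 member, Hspe1, as lower, and 11.9% of all genes (7.24% lower and 4.71% higher), while limma-voom called 0 members. The ranges of WT and C234W did not overlap for 3 members, against 29.1% of all genes. Hspa1b was higher in every C234W library, as were 12.6% of all genes, and Dnajb1 and Hspe1 were lower, as were 16.4%. Without WT1A, 3 of 10 members passed in edgeR, 2 higher and 1 lower, beside 18.5% of all genes (8.93% higher and 9.55% lower). The median log2 fold change of the members was -0.06, with 4 above 0 and 6 below, beside 0.02 for all genes. With 10 members, these counts are read only against those shares. In whole tissue, fewer cells of a type and less RNA per cell cannot be told apart.

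**Figure D1:**
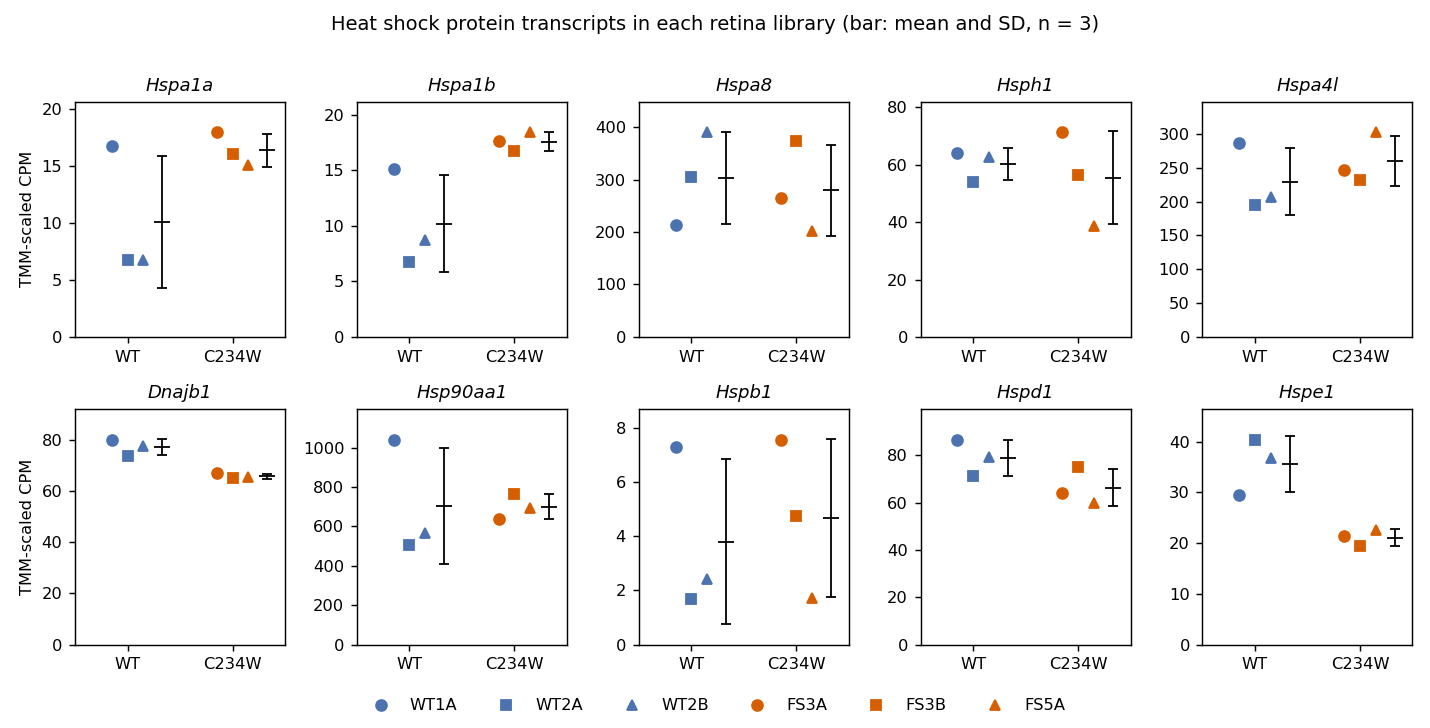
TMM-scaled CPM (vertical axis, starting at 0) of each member in the 3 WT (blue) and 3 C234W (orange) libraries, with the mean and SD of each group as black bars. WT1A, the blue circle, lies with the C234W libraries for Hspa1a and Hspa1b and above all libraries for Hsp90aa1, and Hspe1 is lower in each C234W library.

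Per kilobase of transcript model, the level in WT was highest for Hsp90aa1, at 248 ± 103 CPM per kb, followed by Hspa8 at 145 ± 42.1 (SD, n = 3 here and below). These were followed by Hspa4l at 64.9 ± 14.0, Hspe1 at 46.7 ± 7.29 and Hspd1 at 32.7 ± 3.15 CPM per kb. Dnajb1 stood at 25.7 ± 1.04 and Hsph1 at 17.4 ± 1.60 CPM per kb. The lowest were Hspb1 at 4.23 ± 3.41, Hspa1b at 3.63 ± 1.56 and Hspa1a at 3.61 ± 2.06 CPM per kb. In this order the WT ranges overlapped between Hsp90aa1 and Hspa8 and among the last 3. In C234W the order of the first 7 was the same, but Hspe1, at 27.7 ± 2.13 CPM per kb, overlapped with Hspd1 at 27.4 ± 3.18. The last 3 overlapped there too. This is an order of counts, and reads from sequence shared with other genes could be lost or split. The share of 50-base stretches found in another gene was 84.4% for Hspa8 and 65.6% for Hsp90aa1. It was 62.3% for Hspa1b, 60.3% for Hspa1a, 58.9% for Hspb1, 44.8% for Hspd1 and 36.1% for Hspe1. For Dnajb1 it was 0.407%, and for Hspa4l and Hsph1 it was 0. The part of shared sequence in the order was not tested.

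Hspa1a and Hspa1b encode the stress-inducible Hsp70 of the cytosol, from single-exon genes side by side on chromosome 17 (34969359 to 34972156 and 34956429 to 34959238, mm10). Hspa1a stood at 16.7, 6.73 and 6.77 CPM in WT1A, WT2A and WT2B, and at 18.0, 16.1 and 15.1 CPM in FS3A, FS3B and FS5A. Hspa1b stood at 15.1, 6.78 and 8.68 CPM in WT, and at 17.6, 16.7 and 18.4 CPM in C234W, in the same order of libraries. WT2A and WT2B were low for both genes, and WT1A was close to the C234W libraries, inside their range for Hspa1a and below it for Hspa1b. The log2 fold change was 0.70 (SE 0.347, edgeR adjusted p = 0.232) for Hspa1a and 0.79 (SE 0.290, edgeR adjusted p = 0.138) for Hspa1b.

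The copies are nearly identical, with 60.3% of the 50-base stretches of Hspa1a and 62.3% of those of Hspa1b found in transcripts of another gene, mostly each other, so the division of reads between them is uncertain. Summed, the pair stood at 31.9, 13.5 and 15.4 CPM in WT and 35.6, 32.8 and 33.5 in C234W. Each C234W library was above each WT library for the sum, chosen as a measure after seeing the data. Its log2 fold change was 0.75 (SE 0.302, edgeR adjusted p = 0.166), and Hspa1a took 43.6 to 52.5% of the pair's counts in the 6 libraries. Without WT1A the log2 fold change was 1.24 for the sum (SE 0.166, edgeR adjusted p = 0.0126), 1.29 for Hspa1a (adjusted p = 0.0131) and 1.20 for Hspa1b (adjusted p = 0.0138). The 2 copies then passed, where 8.93% of all genes passed as higher without that library. WT is then WT2A and WT2B alone, which carry 1 number in their names and were the most alike pair of libraries (chi-square 9.97 per degree of freedom, next 30.6). With libraries of the same number summed, Hspa1a was at 0.47 (edgeR adjusted p = 0.648) and Hspa1b at 0.65 (adjusted p = 0.481).

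Immediate early genes, which cells switch on within minutes of a stimulus, were high in some of the same libraries as the Hspa1 pair. The 22 genes of that list summed to 2181, 1200 and 1304 CPM in WT1A, WT2A and WT2B and to 2317, 1911 and 1427 CPM in FS3A, FS3B and FS5A. WT2A and WT2B were lowest for both, while FS5A, high for the Hspa1 pair, was near them for the immediate early genes. The part of these genes, and of the pigment epithelium markers that set WT1A apart, in the Hspa1 values was not tested.

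Hspa8 encodes Hsc70, the constitutive Hsp70 that also strips clathrin from vesicles at synapses, from a gene of 9 exons on chromosome 9 (40801276 to 40805202, plus strand). It stood at 214, 306 and 390 CPM in WT1A, WT2A and WT2B and at 264, 373 and 202 CPM in FS3A, FS3B and FS5A. The groups overlapped throughout their ranges, with WT2A, WT2B and FS3B high (log2 fold change -0.12, SE 0.273, edgeR adjusted p = 0.818). The 12 amacrine markers were high in the same 3 libraries, with sums of 777, 1702 and 1711 CPM in WT and 964, 1513 and 981 CPM in C234W. The same 3 libraries were also highest for the sums of the 13 Müller glia markers, the 12 microglia and macrophage markers and the 17 endoplasmic reticulum chaperones. The Müller glia markers summed to 6157, 6534 and 8006 CPM in WT and 5452, 6580 and 4676 CPM in C234W. No marker of the amacrine list was at 0, and the part of any of these lists in the Hspa8 values was not tested. Of the 50-base stretches of Hspa8, 84.4% are also found in transcripts of 11 other genes, all pseudogenes, so reads there could be lost or split.

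The Hsp110 members, Hspa4l on chromosome 3 (40745613 to 40790365, plus strand, 19 exons) and Hsph1 on chromosome 5 (149616845 to 149636315, minus strand, 17 exons), were at intermediate levels and share no 50-base stretch with another gene. Hspa4l stood at 287, 195 and 207 CPM in WT and at 247, 232 and 303 CPM in C234W, with WT1A and FS5A highest and overlapping groups (log2 fold change 0.18, SE 0.193, edgeR adjusted p = 0.580). Hsph1, also called Hsp105, stood at 64.2, 53.9 and 62.7 CPM in WT and at 71.3, 56.3 and 38.8 CPM in C234W. FS3A was the highest library and FS5A the lowest, so the C234W libraries enclosed the WT range (log2 fold change -0.12, SE 0.220, edgeR adjusted p = 0.768).

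Dnajb1 on chromosome 8 (83608175 to 83612653, plus strand, 3 exons), the Hsp40 partner of Hsp70, varied least between libraries of a group. It stood at 80.2, 74.0 and 77.7 CPM in WT and 67.1, 65.1 and 65.6 CPM in C234W. Each C234W library was below each WT library, yet the difference did not pass (log2 fold change -0.23, SE 0.135, edgeR adjusted p = 0.306). Hsp90aa1 on chromosome 12 (110691036 to 110696395, minus strand, 11 exons), the inducible Hsp90, shares 65.6% of its 50-base stretches with 4 pseudogenes. It stood at 1040, 505 and 565 CPM in WT and at 638, 765 and 696 CPM in C234W. WT1A was the highest of all libraries and WT2A and WT2B the lowest, so that Hsp90aa1 differed 2.06-fold within WT. The genotype difference was -0.01 on the log2 scale (SE 0.268, edgeR adjusted p = 0.988), and 0.39 without WT1A (adjusted p = 0.111). The ratio of Hsp90aa1 to Hspa8, per length, was 3.59, 1.22 and 1.07 in WT and 1.78, 1.51 and 2.55 in C234W (exact permutation test, two-sided, p = 0.7, where 3 against 3 cannot go below 0.1).

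Hspb1 on chromosome 5 (135887919 to 135889563, plus strand, 3 exons), the small heat shock protein Hsp25, was at the lowest counts of the members, 28.5 to 138 per library. It stood at 7.31, 1.67 and 2.43 CPM in WT and 7.55, 4.74 and 1.71 CPM in C234W, so that WT1A and FS3A were high, FS3B intermediate and the others low. The groups overlapped (log2 fold change 0.32, SE 0.616, edgeR adjusted p = 0.774), and without WT1A the value was 1.24 (SE 0.606, adjusted p = 0.185). The 14 gliosis markers, which rise in reactive Müller glia and astrocytes, summed to 604, 323 and 350 CPM in WT and 1591, 1088 and 405 CPM in C234W. Gfap, the glial intermediate filament and 1 of these 14 genes, singled out after its values were seen, stood at 46.8, 25.3 and 20.4 CPM in WT and 248, 99.4 and 26.5 CPM in C234W. The 3 libraries with most Hspb1 were the 3 with most Gfap, and also the 3 with the highest sum of the immediate early genes. No gene of either list was at 0. The part of these genes in the Hspb1 values was not tested, and 58.9% of the 50-base stretches of Hspb1 are shared with its pseudogene Hsp25-ps1.

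Hspd1 encodes Hsp60, the barrel of the mitochondrial chaperonin, and Hspe1 encodes Hsp10, its lid. Hspd1 (55077833 to 55088243, minus strand, 12 exons) and Hspe1 (55088148 to 55091317, plus strand, 4 exons) are neighbours on chromosome 1. Hspd1 stood at 86.6, 71.4 and 79.2 CPM in WT and 64.3, 74.9 and 60.0 CPM in C234W, with FS3B inside the WT range (log2 fold change -0.25, SE 0.156, edgeR adjusted p = 0.335). Hspe1 stood at 29.5, 40.4 and 36.9 CPM in WT and 21.4, 19.4 and 22.6 CPM in C234W. Each C234W library was below each WT library, with WT1A nearest to them. The log2 fold change of Hspe1 was -0.76 (SE 0.180, edgeR adjusted p = 0.0602), the largest in size after Hspa1b among the members. It passed in DESeq2 (adjusted p = 0.00716) and in edgeR without WT1A (-0.87, adjusted p = 0.0145), where 9.55% of all genes passed as lower and WT is WT2A and WT2B alone. With libraries of the same number summed it was -0.69 (edgeR adjusted p = 0.375). The ratio of Hspe1 to Hspd1, per length, was 1.08, 1.80 and 1.48 in WT and 1.06, 0.820 and 1.19 in C234W, with overlapping groups (exact permutation test, two-sided, p = 0.2, smallest possible 0.1). Pseudogenes and other genes share 44.8% of the 50-base stretches of Hspd1 and 36.1% of those of Hspe1.

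**Figure D2:**
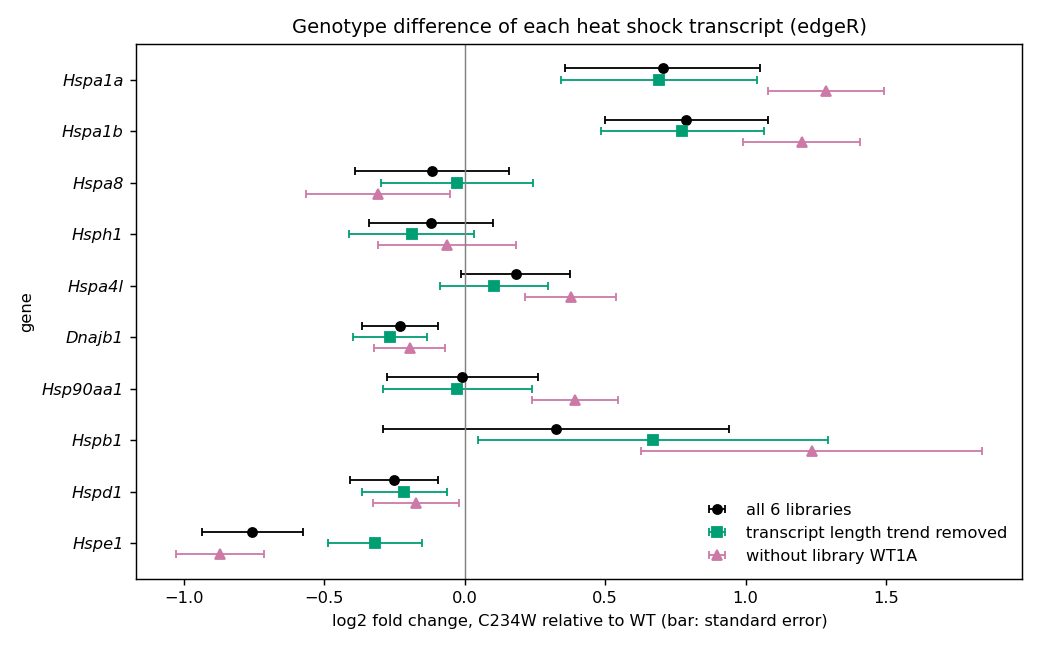
Log2 fold change of C234W relative to WT with its standard error (horizontal axis) for each member, over all 6 libraries (black), with the trend on transcript length removed (green) and without library WT1A (pink). Hspa1a and Hspa1b move from 0.70 and 0.79 to 1.29 and 1.20 without WT1A, and Hspe1 moves from -0.76 to -0.32 once the length trend is removed.

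Fold changes across all genes moved with transcript length, and Hspe1, at 762 bases, is the shortest member. With the genes divided by length into 5 classes of like size, the median difference on the log2 scale was -0.34 in the class of models up to 1671 bases and 0.28 in the class from 4985 bases up. Among the 602 genes of 610 to 952 bases the median was -0.45, and 21.8% of them were at or below the value of Hspe1. With the length trend removed from each library, Hspe1 was at -0.32 (edgeR adjusted p = 0.317). No member passed then, and 0.00681% of all genes did. The Hspa1 pair, at 2795 and 2807 bases, kept values of 0.69 and 0.77.

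**Figure D3:**
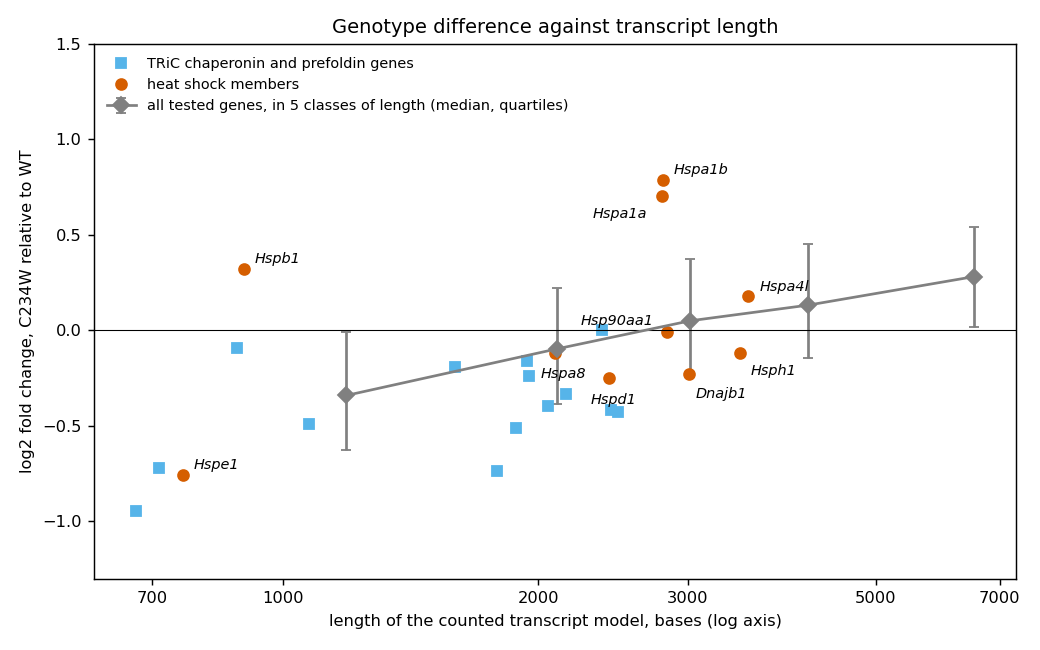
Log2 fold change of C234W relative to WT (vertical axis) against the length of the counted transcript model (horizontal log axis), for the members (orange), the TRiC and prefoldin genes (light blue) and all tested genes in 5 classes of length (grey, median and quartiles). The medians of the classes run from -0.34 to 0.28, and Hspe1 lies among short genes that are mostly below 0.

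The members did not share 1 pattern across libraries. WT1A was above the mean of the 6 libraries for Hspa1a, Hspa1b, Hsph1, Hspa4l, Dnajb1, Hsp90aa1, Hspb1, Hspd1 and Hspe1, and below it for Hspa8 alone. FS5A was above the mean for Hspa1a, Hspa1b, Hspa4l and Hsp90aa1 and below it for the other members. The summed level of the 10 members, which Hsp90aa1 dominates, was 1841, 1261 and 1436 CPM in WT and 1416, 1623 and 1422 CPM in C234W.

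**Figure D4:**
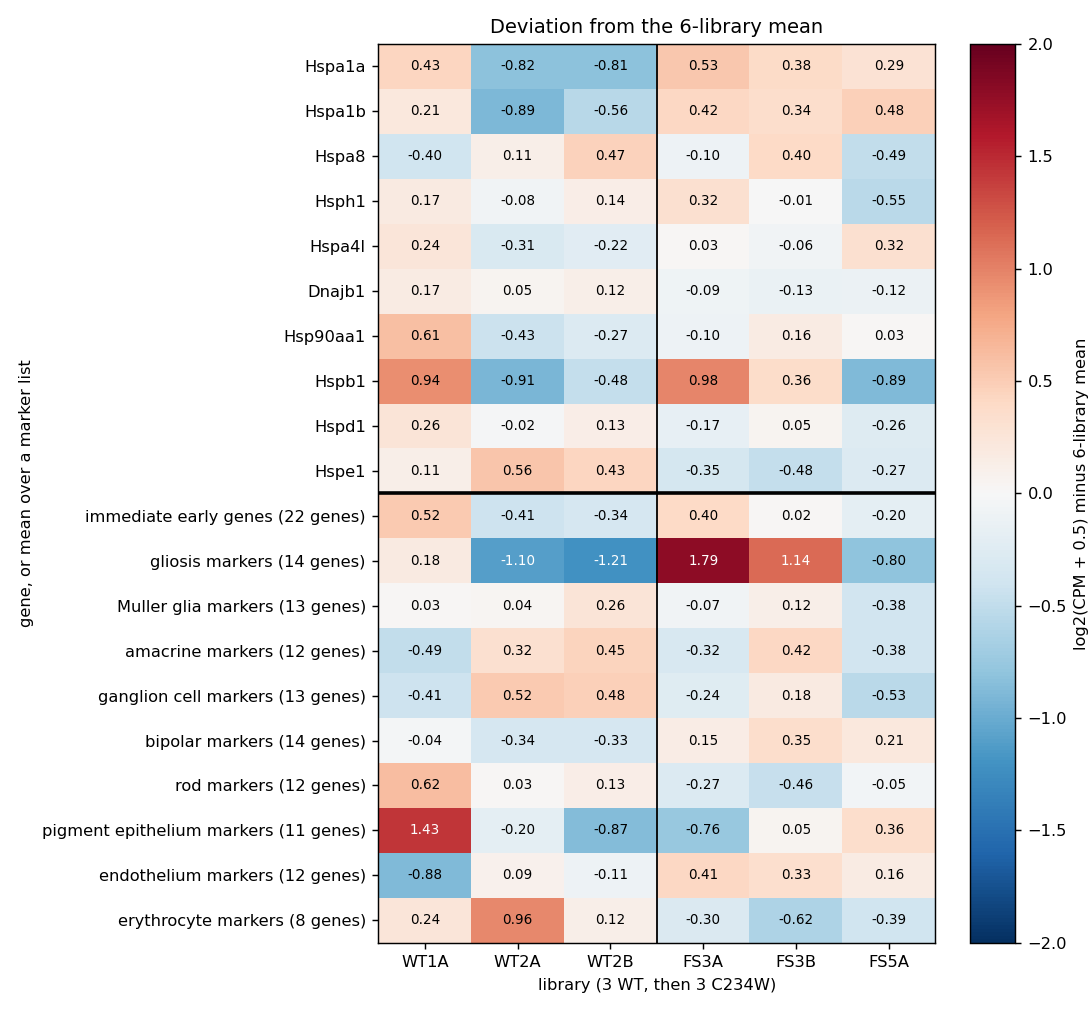
Deviation of log2(CPM + 0.5) from its mean over the 6 libraries (colour and printed value) for each member above the line, and its mean over the tested genes of each list below it, with WT libraries left of the vertical line. WT1A is 0.61 above the mean for Hsp90aa1 and 1.43 for the pigment epithelium markers, and Hspb1 and the gliosis markers are both highest in FS3A.

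The other chaperones were read from 8 lists of cytosolic, mitochondrial and endoplasmic reticulum genes, beside 1 list of immediate early genes. In the TRiC chaperonin, which folds actin and tubulin, and its partner prefoldin, 1 of 14 tested genes fell and 0 rose, beside backgrounds of 1.53% and 0.293%. That gene was Pfdn5, a prefoldin subunit, at 252, 290 and 299 CPM in WT and 158, 123 and 156 CPM in C234W (log2 fold change -0.94, SE 0.162, edgeR adjusted p = 0.0469). Its 3 C234W libraries were below all WT libraries, as for 16.4% of all genes. With the length trend removed the value was -0.47 (edgeR adjusted p = 0.145), and with scaling to total counts -0.77 (edgeR adjusted p = 0.0522). No gene at all passed with libraries of the same number summed, or without WT2A, WT2B or FS3A. The list's median was -0.41, with 14 of 14 values below 0 (13 with RLE or upper-quartile scaling and 11 with total counts). It was -0.26 with the length trend removed, where the median of all genes was 0.0024. With total counts the median of all genes was 0.205. Relative to the median of all genes, the list's median was -0.43 both in the main fit and with total counts. Without WT1A 5 of the 14 genes passed as lower, beside 9.55% of all genes.

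In the Hsp90 partner and co-chaperone list, 0 of 14 genes passed, 6 had an unadjusted p under 0.05 beside 25.9% of all genes, and the median was -0.31 (-0.19 with the length trend removed). With scaling to total counts the median was -0.14, with 8 of 14 below 0, where all genes had a median of 0.205. Relative to the median of all genes, the list's median was -0.34 both in the main fit and with total counts. Without WT1A 4 genes passed as lower and 2 as higher, beside 9.55% and 8.93% of all genes. The kinase-specific co-chaperone Cdc37 averaged 151 ± 6.71 CPM in WT and 94.2 ± 12.2 in C234W (SD, n = 3, edgeR adjusted p = 0.0547). The Hsp90 co-chaperone p23, encoded by Ptges3, averaged 110 ± 27.8 and 62.8 ± 2.90 CPM (edgeR adjusted p = 0.0627). For both genes, each C234W library was below each WT library, as for 16.4% of all genes. Both were named for the lowest p of their list, so this separation adds nothing to the p-values. Of the 15 Hsp70 co-chaperones none passed, 5 had an unadjusted p under 0.05, and the median was -0.15. This median was -0.22 with the length trend removed and 0.0314 with scaling to total counts, where all genes had a median of 0.205. Bag1 and Bag5, nucleotide exchange partners of Hsp70, stood lowest in p: Bag1 averaged 145 ± 24.4 CPM in WT and 78.7 ± 13.9 in C234W (edgeR adjusted p = 0.0531). Bag5 averaged 69.8 ± 11.5 and 40.6 ± 2.19 CPM (edgeR adjusted p = 0.0535). Without WT1A, 6 Hsp70 co-chaperones passed as lower and 1 as higher, beside the same 9.55% and 8.93%.

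The heat shock factor list had 0 of 5 genes passing and a median of 0.01. This median was -0.19 without WT1A and 0.17 with scaling to total counts, where all genes had a median of 0.205. Hsf1, the main factor of the heat shock response, stood at 34.9, 28.2 and 24.1 CPM in WT and 46.8, 31.9 and 40.5 CPM in C234W, with overlap between WT1A and FS3B (log2 fold change 0.45, SE 0.207, edgeR adjusted p = 0.207). Hsbp1, whose product binds Hsf1 and restrains it, averaged 170 ± 17.8 CPM in WT and 109 ± 14.0 in C234W (edgeR adjusted p = 0.0632). Its difference was -0.65 on the log2 scale and -0.35 once the trend on length was taken out. Among the other cytosolic Hsp70 and Hsp110 genes, 0 of 5 tested (6 listed) passed, with a median of 0.18. Hspa12b, a distant Hsp70 relative of endothelium, averaged 1.54 ± 0.430 and 3.04 ± 0.819 CPM (edgeR adjusted p = 0.134). Hspa14 averaged 52.4 ± 6.70 and 41.4 ± 1.08 CPM (log2 fold change -0.34, edgeR adjusted p = 0.202), which became -0.19 with the length trend removed and -0.23 without WT1A. The 12 endothelium markers summed to 206 to 237 CPM in WT and 297 to 368 CPM in C234W, none was at 0, and their part in the Hspa12b values was not tested.

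Of the other small heat shock proteins, 4 of 8 were tested and 0 passed, with a median of -0.54, and Hspb9 was at 0 in all libraries. Hspb6 averaged 177 ± 48.2 CPM in WT and 114 ± 20.8 in C234W (log2 fold change -0.64, edgeR adjusted p = 0.123); this value was -0.39 without WT1A and -0.38 with the length trend removed. Hspb2 averaged 1.04 ± 0.248 and 0.578 ± 0.0488 CPM (log2 fold change -0.86, edgeR adjusted p = 0.229; -0.46 on the log2 scale with the length trend removed). The 17 other mitochondrial chaperones and proteases had 0 passing genes and a median of 0.05. The matrix protease subunit Clpp averaged 61.5 ± 2.60 and 44.1 ± 0.690 CPM (edgeR adjusted p = 0.0846), while the inner membrane protease Yme1l1 averaged 67.2 ± 4.31 and 89.3 ± 0.682 CPM (edgeR adjusted p = 0.114). Neither passed. The model of Clpp has 1199 bases and that of Yme1l1 4550, and with the length trend removed their values went from -0.48 to -0.19 and from 0.41 to 0.26. The 17 endoplasmic reticulum chaperones had 0 passing genes and a median of -0.04 (-0.13 with the length trend removed). Lowest in p were the Hsp70 partner Dnajb11 (76.3 ± 5.93 and 53.1 ± 5.94 CPM, edgeR adjusted p = 0.0869) and the lectin chaperone Calr (270 ± 22.9 and 195 ± 34.1 CPM, edgeR adjusted p = 0.135).

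Among the 22 immediate early genes 1 fell, 0 rose and 6 had an unadjusted p under 0.05, beside 1.53%, 0.293% and 25.9% of all genes, with a median of 0.10, and 0.62 without WT1A. The gene that fell was Jund, an AP-1 subunit expressed at steady levels in many cells, at 300, 257 and 311 CPM in WT and 181, 149 and 172 CPM in C234W (log2 fold change -0.79, SE 0.155, edgeR adjusted p = 0.0475). It did not pass with the length trend removed (-0.81, edgeR adjusted p = 0.108) or with scaling to total counts (-0.61, edgeR adjusted p = 0.0559). No gene at all, and so neither Jund nor Pfdn5, passed with libraries of the same number summed, or without WT2A, WT2B or FS3A. The same held at an adjusted p of 0.01. Without WT1A, 7 immediate early genes passed as higher and 2 as lower, beside 8.93% and 9.55% of all genes.

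**Figure D5:**
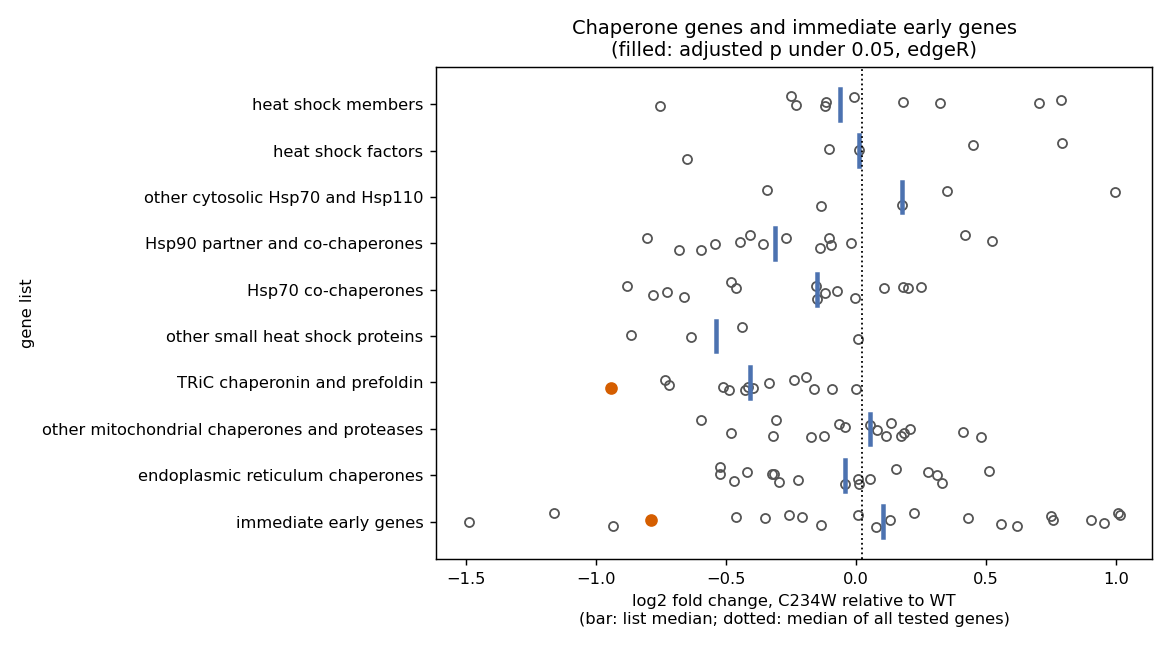
Log2 fold change of C234W relative to WT (horizontal axis) for each tested gene of the members and of 9 lists (vertical axis), with list medians as blue bars, the median of all genes dotted, and genes with an adjusted p under 0.05 filled. The 2 filled genes are Pfdn5 and Jund, and the TRiC and prefoldin values run from -0.94 up to 0, with a median of -0.41. With scaling to total counts this median was -0.22, where that of all genes was 0.205.

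The non-member genes most like the members were found by Pearson's r over the 6 libraries among 11475 genes of at least 5 mean CPM, as a description, since 6 libraries that differ in depth and composition give high values of r by selection. For the mean of the 8 cytosolic members these were Sgtb (r = 0.994), which encodes a co-chaperone of Hsp70, Tubb5 (0.991), a beta-tubulin, Bud13 (0.984), Akr1e1 (0.983) and 1700003E16Rik (0.982). Tubb5 stood at 602, 352 and 411 CPM in WT and at 517, 524 and 425 CPM in C234W, highest in WT1A and lowest in WT2A as the cytosolic mean was. For the mean of Hspd1 and Hspe1 they were Asna1 (r = 0.997), Nol11 (0.997), Wbp2 (0.997), Atp5g3 (0.996), a subunit of ATP synthase, and Rsph3a (0.996). Atp5g3 stood at 268, 248 and 263 CPM in WT and at 184, 195 and 172 CPM in C234W. Each C234W library was below each WT library, which follows from its selection, since the mean of Hspd1 and Hspe1 has the same order of groups.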

How the data were processed

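Strand-specific TruSeq libraries of poly-adenylated RNA were sequenced, per the labels' protocols. Mapping used STAR 2.7.8a and mm10 per the submitters' processing notes. Exons were counted by strand with HOMER, per the file headers. The authors deposited estimated counts without normalization, in steps of 0.5 (28.3 to 32.1% were not whole), rounded here for the fits. Sample columns left out numbered 0. Counts were scaled by TMM, filtered by filterByExpr and tested with edgeR 4.0.16 (glmQLFit, robust) in R 4.3.3, with Benjamini-Hochberg adjustment over 14685 genes and a threshold of 0.05. Alternatives used DESeq2 1.42.0, limma-voom 3.58.1, other scalings and filters, unrounded counts, removal of a loess trend on transcript length (span 0.3), and each library left out. The members and lists were chosen with earlier results of these data known. Genes named from a list are up to 2 that passed, by p, and in a list with no such gene the 2 of lowest p. The fits were tested on simulated data. Every pair of libraries differed beyond sampling noise (chi-square at least 9.97 per degree of freedom). Transcript overlap used GENCODE on the same assembly, and start windows came from RefSeq. The level of 1 marker gene is not reported here.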

Additional observations from a re-analysis of the deposited data

How the results depend on the processing

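Of 160 fold changes of members under 16 alternatives, 143 kept their direction and side of the threshold, 4 came to pass and 13 reversed. The 4 were Hspa1a and Hspa1b without WT1A and Hspe1 without WT1A and in DESeq2. The number of members called was 0, and 1 in DESeq2 and 0 to 3 with 1 library left out (3 without WT1A). Endoplasmic reticulum chaperones had a median of 0.157 with total counts against -0.04. Relative to the median of all genes, the list's median was -0.048 with total counts and -0.066 in the main fit. The number of genes called was 267, and 230 with RLE scaling, 200 with upper quartiles, 1 with total counts, 350 with no filter, 1754 in DESeq2, 239 in limma-voom, 1 with the length trend removed, 0 with libraries of the same number summed and 0 at an adjusted p of 0.01. With 1 library left out it was 0 to 2771: 2771 without WT1A, 0 without WT2A, WT2B or FS3A, 1 without FS3B and 7 without FS5A. Total counts moved the median of all genes from 0.02 to 0.21, and relative to 0.205 none of the 4 values that reversed under this scaling was above 0. The values that reversed were, with total counts, 0.0574 for Hspa8, 0.0696 for Hsph1, 0.200 for Hsp90aa1 and 0.13 for the members' median, with upper quartiles 0.0117 and in limma-voom 0.0609 for Hsp90aa1, and with libraries of the same number summed -0.13 for Hspb1. With 1 library left out, the log2 fold change of Hspa8 ran from -0.38 (without FS3B) to 0.108 (without WT2B), that of Hspb1 ran from -0.19 (without FS3A) to 1.24 (without WT1A), that of Hsph1 ran from -0.34 (without FS3A) to 0.0818 (without FS5A), that of Hsp90aa1 ran from -0.20 (without WT2A) to 0.392 (without WT1A) and the members' median ran from -0.15 (without WT2A) to 0.156 (without WT1A). No paired analysis was possible because the columns carry no replicate number of the labels. The depth limits Hspb1 and the Hspa1 pair most, with 28.5 to 352 counts per library.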
